A study of Mus musculus with 6 samples.

Results

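Antiviral interferon-stimulated genes were followed in mouse Th17 cells, a helper T cell type that makes interleukin 17, from control and RTF1-deficient cultures. The set comprised 36 effector genes that type I interferon induces, chosen by name and without the GTPase families of guanylate-binding and immunity-related proteins, the p200 genes, the nucleic acid sensors, the STATs and the IRFs. The count table of 31017 genes held 35 of them, and all 35 passed the filter on low counts. Mx2 had no row under that symbol and was not analysed here.

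The 6 libraries came from Th17 cells differentiated in culture, 3 from control cells of genotype WT and 3 from RTF1-deficient cells of genotype KO. RTF1, a partner of transcribing RNA polymerase II, promotes ubiquitination of histone H2B, and the comparison asks what its loss does to gene activity in these cells. The labels give no strain, age, allele or Cre driver, no culture time and no interferon treatment. They also do not say whether equally labelled libraries came from separate animals, so p-values measure only the spread between these libraries, part of which may be technical.

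Type I interferons bind the IFNAR1 and IFNAR2 receptor chains. The kinases JAK1 and TYK2 then phosphorylate STAT proteins, which join IRF9 and switch on genes through a DNA element called the interferon-stimulated response element. The products of these genes cut or sense viral RNA, block its translation, trap virions at membranes, or modify proteins with the ubiquitin-like ISG15. Many are also kept at a low basal level without added interferon, and T cells respond to interferon through the same receptor.

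Total counts ran from 16489813 to 51271226 per library. Rtf1, the targeted gene, held 93.99, 91.2 and 88.3 CPM (counts scaled to library size) in control replicates 1, 2 and 3 and 45.3, 30.4 and 26.2 CPM in KO (log2 fold change −1.42, SE 0.191, edgeR adjusted p = 0.000755). It was reduced but not absent in the libraries labelled KO. The 7 T cell markers summed to 1910 to 2340 CPM in control and 1650 to 2030 CPM in KO, with 2 called higher and 2 lower. The 7 Th17 markers summed to 1620 to 2150 CPM in control and 624 to 1280 CPM in KO, with 4 called lower and 1 higher. Replicate 3 of each group carried Y-linked counts (11376 and 5147 over 4 genes), against 1 to 3 in the other libraries. Xist had 5 and 1 counts in replicate 3 of control and KO and 14668 to 28176 in the other libraries, so each group held libraries of both sexes and hence more than 1 animal. The mitochondrial share was 0.642% to 1.16% in control and 1.11% to 1.44% in KO.

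Most of the antiviral genes rose in KO. Of the 35 genes, 31 were called higher at an adjusted p under 0.05, none was called lower by edgeR or DESeq2, and 4 (Bst2, Oasl1, Rsad2 and Phf11d) were not called. At an unadjusted p under 0.05 the count lower was also 0. Over all 14268 tested genes 46.1% were called, 23.2% higher and 22.9% lower. At least 2-fold increases numbered 26 among the antiviral genes, against 11.3% of all tested genes, and at least 4-fold increases numbered 13, against 4.49%. The median log2 fold change was 1.86, and 0.013 over all tested genes. In 32 of the 35 genes every KO library lay above every control library, which held for 29.9% of all tested genes. Counting either direction, 57.9% of all tested genes did not overlap. The other 3 genes (Bst2, Oasl1 and Phf11d) overlapped between the groups. In bulk RNA, fewer cells of a type and less RNA per cell cannot be told apart.

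**Figure D1:**
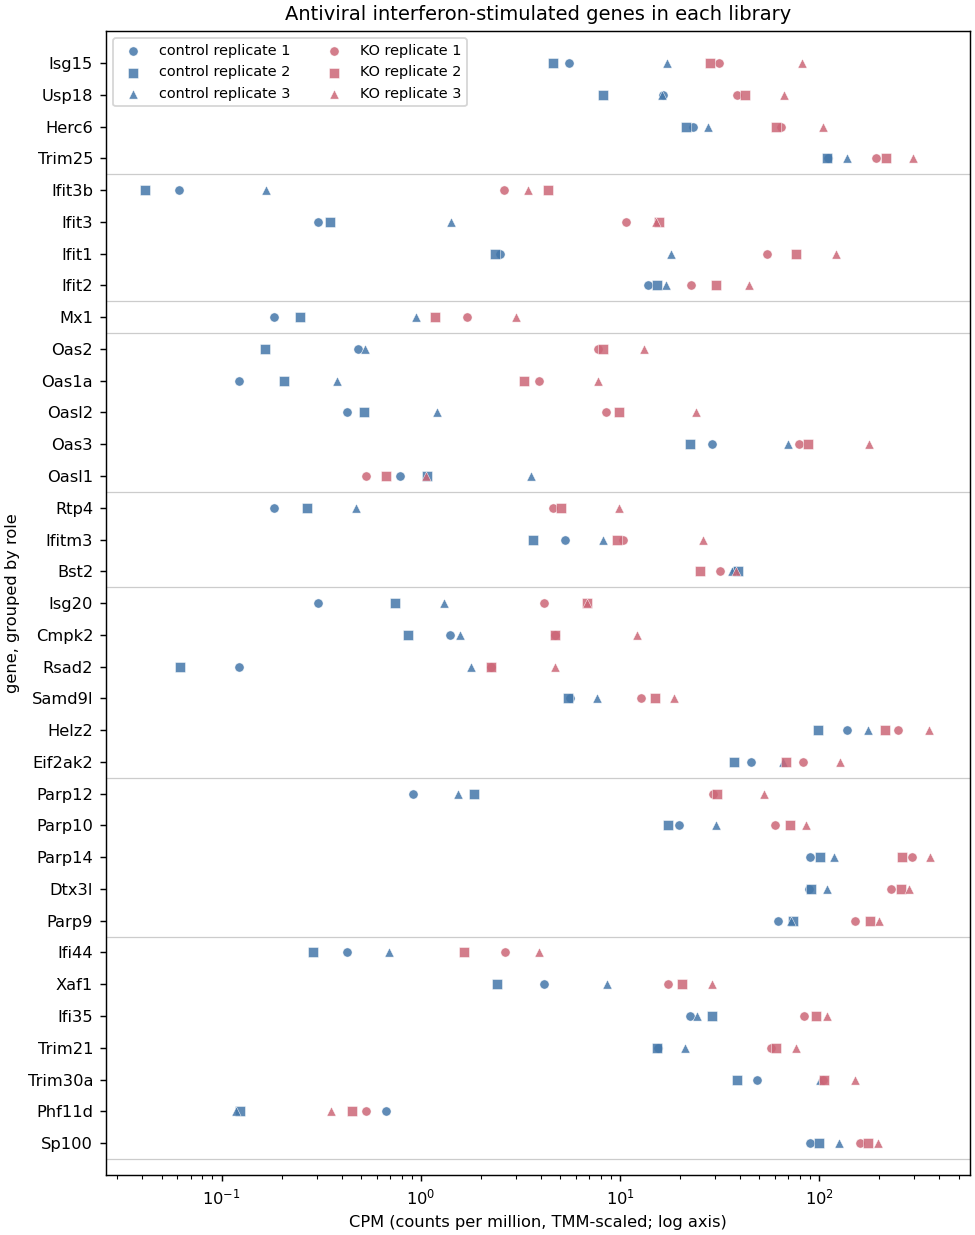
Level of each of the 35 genes in each library, in CPM on a log axis, with control in blue and KO in red and a marker shape for each replicate number. For 32 genes all red points lie to the right of all blue points; Bst2, Oasl1 and Phf11d overlap.

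The ISG15 system rose as a group, with 4 of 4 genes called. Isg15 encodes the ubiquitin-like protein that is attached to other proteins or secreted. It held 5.53, 4.603 and 17.2 CPM in control replicates 1, 2 and 3 and 31.4, 28.4 and 81.5 CPM in KO. Replicate 3 was the highest library of each group, and the groups did not overlap. The means were 9.13 ± 7.05 and 47.1 ± 29.8 CPM (mean ± SD of 3 libraries, as elsewhere), a log2 fold change of 2.34 with SE 0.568 (edgeR adjusted p = 0.00981). Leaving out control replicate 3 gave 3.17 for Isg15, and leaving out KO replicate 3 gave 1.70. Usp18 encodes the protease that removes ISG15 and dampens signalling at the receptor. It held 16.4, 8.21 and 16.3 CPM in control and 38.8, 42.4 and 66.5 CPM in KO, without overlap (1.86, SE 0.301, adjusted p = 0.00167). Herc6, the mouse ligase that attaches ISG15, rose by a log2 fold change of 1.66. Trim25, a ubiquitin ligase that acts on the RNA sensor RIG-I, rose least of the group, from 119 ± 16.01 to 235 ± 54.0 CPM (0.97, SE 0.177, adjusted p = 0.00274).

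The IFIT proteins bind viral RNA and hold back its translation, and their genes stand side by side on chromosome 19 (GRCm38). All 4 were called higher, by very unequal amounts. Ifit3b (chr19:34607970-34613401) was almost absent from control, with 1, 2 and 7 counts in replicates 1, 2 and 3, and had 69, 163 and 68 counts in KO. In CPM these were 0.0608, 0.0413 and 0.166 against 2.62, 4.35 and 3.46 (log2 fold change 5.16, SE 0.526, edgeR adjusted p = 0.000251), the largest increase among the 35 genes. Its neighbour Ifit3 (chr19:34583531-34588731) held 0.304, 0.351 and 1.43 CPM in control and 10.7, 15.8 and 15.1 CPM in KO (4.23, SE 0.523, adjusted p = 0.000542). The division of reads between these copies is uncertain, since 51.2% of the 50-base stretches of Ifit3 and 45% of those of Ifit3b occur in transcripts of other genes, mainly each other. Ifit1 held 2.49, 2.35 and 18.1 CPM in control and 54.8, 76.0 and 122 CPM in KO (3.42, SE 0.738, adjusted p = 0.00579). Control replicate 3 stood 7.45 times above the mean of the other control libraries for Ifit1 but still below every KO library. Without it the log2 fold changes were 5.06 for Ifit1, 5.28 for Ifit3 and 6.03 for Ifit3b. Ifit2 (chr19:34550694-34576419), at the other end of the cluster, held 13.7, 15.3 and 16.96 CPM in control and 22.8, 30.4 and 44.2 CPM in KO (1.08, SE 0.231, adjusted p = 0.00569). Its control libraries were close together and its change was the smallest of the 4.

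Mx1, a dynamin-like protein that blocks influenza-type viruses in the nucleus, was scarce in both groups. It held 0.182, 0.248 and 0.9503 CPM in control and 1.71, 1.18 and 2.999 CPM in KO (log2 fold change 1.98, SE 0.627, edgeR adjusted p = 0.0295). Dropping any of 4 libraries ended the call: control replicate 1 (1.65) or 2 (1.58), or KO replicate 1 (2.07) or 3 (1.56). Dropping control replicate 3 gave 3.003.

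The OAS proteins make a short adenylate messenger on contact with double-stranded RNA, which activates an RNA-cutting enzyme; the OASL proteins are relatives that end in ubiquitin-like domains. In this family 4 genes rose and 1 did not. Oas2 (chr5:120730333-120749853) held 0.486, 0.165 and 0.523 CPM in control and 7.74, 8.25 and 13.1 CPM in KO (log2 fold change 4.69, SE 0.456, edgeR adjusted p = 0.000224). Oas1a rose from 0.236 ± 0.132 to 4.9998 ± 2.42 CPM (4.27, SE 0.511, adjusted p = 0.00048). The split of reads with Oas1g is uncertain, because that gene and other copies contain 57.6% of the 50-base stretches of Oas1a. Oas3 was already well expressed in control, at 28.8, 22.4 and 69.8 CPM, and reached 79.2, 88.3 and 179 CPM in KO (1.51, SE 0.447, adjusted p = 0.0228). Its call was lost without control replicate 1 (1.28), control replicate 2 (1.20) or KO replicate 3 (1.05), and the log2 fold change was 2.12 without control replicate 3.

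The pair of neighbouring OASL genes on chromosome 5 parted. Oasl2 (chr5:114896936-114912234) held 0.426, 0.516 and 1.21 CPM in control and 8.50, 9.85 and 24.1 CPM in KO (log2 fold change 4.22, SE 0.537, edgeR adjusted p = 0.000606). Oasl1 (chr5:114923240-114937915) is known for holding back translation of Irf7. It held 0.790, 1.07 and 3.56 CPM in control and 0.532, 0.668 and 1.07 CPM in KO (−1.31, SE 0.596, adjusted p = 0.101). The Oasl1 groups overlapped, since KO replicate 3 lay above control replicate 1, and within each replicate number KO was below control. Without control replicate 3 the log2 fold change of Oasl1 was −0.42. Dropping control replicate 1 (−1.68, adjusted p = 0.0475) or using the replicate number as a block (−1.04, adjusted p = 0.049999) made it a call, and its adjusted p ran from 0.0475 to 0.470 over the alternatives. For Oasl2 the log2 fold change was 3.62 without KO replicate 3.

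Among the membrane and trafficking factors 2 of 3 genes rose. Rtp4, a chaperone of membrane receptors, held 0.182, 0.268 and 0.475 CPM in control and 4.63, 5.07 and 9.86 CPM in KO (log2 fold change 4.30, SE 0.465, edgeR adjusted p = 0.000331). Ifitm3, which hinders fusion of viruses with endosomes, held 5.29, 3.65 and 8.24 CPM in control and 10.4, 9.69 and 26.03 CPM in KO (1.41, SE 0.433, adjusted p = 0.0261). Without KO replicate 3 the Ifitm3 log2 fold change was 0.81 and not called, and the call was also lost without control replicate 1 (1.31) or 2 (1.15). Within replicate numbers 1, 2 and 3 the log2 difference of KO over control for Ifitm3 was 0.97, 1.41 and 1.66. Bst2 encodes tetherin, which ties budding virions to the cell surface. It held 37.6, 39.3 and 36.7 CPM in control and 31.6, 25.2 and 38.1 CPM in KO (−0.26, SE 0.161, adjusted p = 0.212). KO replicates 1 and 2 lay below and KO replicate 3 inside the control range. With replicates 1 and 2 alone Bst2 was called lower (−0.44, adjusted p = 0.0432). Per kilobase of exon, Bst2 was the most abundant of the 35 genes in control (41.9 CPM per kilobase) and the sixth in KO (35.02 CPM per kilobase).

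The nucleotide and RNA enzymes had 5 of 6 genes called higher. Isg20, an exonuclease that degrades RNA, held 0.304, 0.743 and 1.31 CPM in control and 4.14, 6.86 and 6.81 CPM in KO (log2 fold change 2.83, SE 0.458, edgeR adjusted p = 0.00165). Cmpk2, a mitochondrial nucleotide kinase, held 1.40, 0.867 and 1.57 CPM in control and 4.71, 4.73 and 12.2 CPM in KO (2.49, SE 0.454, adjusted p = 0.00276), and the log2 fold change was 1.89 without KO replicate 3. Rsad2 encodes viperin, which makes a chain-terminating nucleotide, and lies next to Cmpk2 on chromosome 12. It held 0.122, 0.0619 and 1.78 CPM in control and 2.24, 2.24 and 4.73 CPM in KO. Every KO library lay above every control library, but control replicate 3 stood 19.4 times above the mean of the other control libraries. Rsad2 was not called (2.12, SE 0.936, adjusted p = 0.0931). Its log2 fold change was 5.12 without control replicate 3 (adjusted p = 0.000296) and 1.49 without control replicate 2. With the replicate number as a block it was 2.96 and called (adjusted p = 0.00374), and the adjusted p ran from 0.000248 to 0.233 over the alternatives.

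Eif2ak2 encodes PKR, the kinase that stops translation on contact with double-stranded RNA. It changed least of this group, from 49.4 ± 14.8 to 92.7 ± 30.9 CPM (log2 fold change 0.90, SE 0.266, edgeR adjusted p = 0.0221). Its call was lost without control replicate 1 (0.79), control replicate 2 (0.72) or KO replicate 3 (0.61). Within replicate numbers 1, 2 and 3 the log2 difference of KO over control for Eif2ak2 was 0.87, 0.87 and 0.95. Samd9l, which restricts poxvirus translation, rose by 1.30 (adjusted p = 0.00195), and the helicase gene Helz2 by 0.99 (adjusted p = 0.0101).

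The ADP-ribosyltransferase genes and Dtx3l all rose. PARP9 forms a complex with the ubiquitin ligase DTX3L, PARP14 is a macrodomain protein, and PARP12 and PARP10 attach single ADP-ribose units. All 5 genes kept their calls in each fit that left out 1 library, as did those of the ISG15 and IFIT groups. Parp12 (chr6:39086410-39118349) held 0.912, 1.86 and 1.54 CPM in control and 29.4, 30.5 and 52.9 CPM in KO (log2 fold change 4.63, SE 0.324, edgeR adjusted p = 6.9e-05). The other 4 genes had log2 fold changes of 1.35 to 1.68. Parp9 held 61.9, 74.1 and 72.0 CPM in control and 151, 180 and 199 CPM in KO (1.35, SE 0.136, adjusted p = 0.000243). Dtx3l, which is transcribed away from Parp9 on chromosome 16, held 88.4, 90.5 and 109 CPM in control and 228, 256 and 283 CPM in KO (1.41, SE 0.135, adjusted p = 0.000203). Exons of these genes overlap (9.40% of the exonic bases of Parp9 and 8% of those of Dtx3l), and without a known strand setting reads there cannot be told apart.

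Among the TRIM, nuclear body and other regulators 6 of 7 genes rose. Ifi44, an interferon-induced protein of the cytoplasm, rose most (log2 fold change 2.52, SE 0.474, edgeR adjusted p = 0.00317), from 0.426, 0.289 and 0.689 CPM in control to 2.66, 1.66 and 3.91 CPM in KO. Xaf1, an antagonist of the apoptosis inhibitor XIAP, held 4.13, 2.41 and 8.55 CPM in control and 17.4, 20.5 and 28.8 CPM in KO (2.13, SE 0.420, adjusted p = 0.00385), and its log2 fold change was 2.76 without control replicate 3. Ifi35 and Trim21 were tightly grouped. Ifi35 held 22.5, 29.0 and 24.3 CPM in control and 84.2, 96.1 and 109 CPM in KO (1.93, SE 0.148, adjusted p = 8.9e-05). Trim21, the cytosolic antibody receptor, held 15.6, 15.4 and 21.1 CPM in control and 57.3, 60.4 and 76.2 CPM in KO (1.89, SE 0.177, adjusted p = 0.000192).

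Sp100, a scaffold of nuclear bodies, rose from 105 ± 18.4 to 178 ± 17.8 CPM (log2 fold change 0.76, SE 0.147, edgeR adjusted p = 0.00366), the smallest called change of the 35. Trim30a, a brake on NF-kB signalling, held 48.8, 38.9 and 101 CPM in control and 105, 105 and 150 CPM in KO (0.93, SE 0.327, adjusted p = 0.0444). Control replicate 3 came close to the lowest KO libraries, and the Trim30a call did not survive the loss of any of the other 5 libraries, with log2 fold changes of 0.66 to 1.02. It held when control replicate 3 was dropped (1.41). Phf11d was near the limit of detection, with 11, 6 and 5 counts in control and 14, 17 and 7 in KO, and the groups overlapped (0.86, SE 0.695, adjusted p = 0.339). Dropping control replicate 1 made it a call (1.79, adjusted p = 0.0448), and dropping control replicate 3 gave 0.41.

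**Figure D2:**
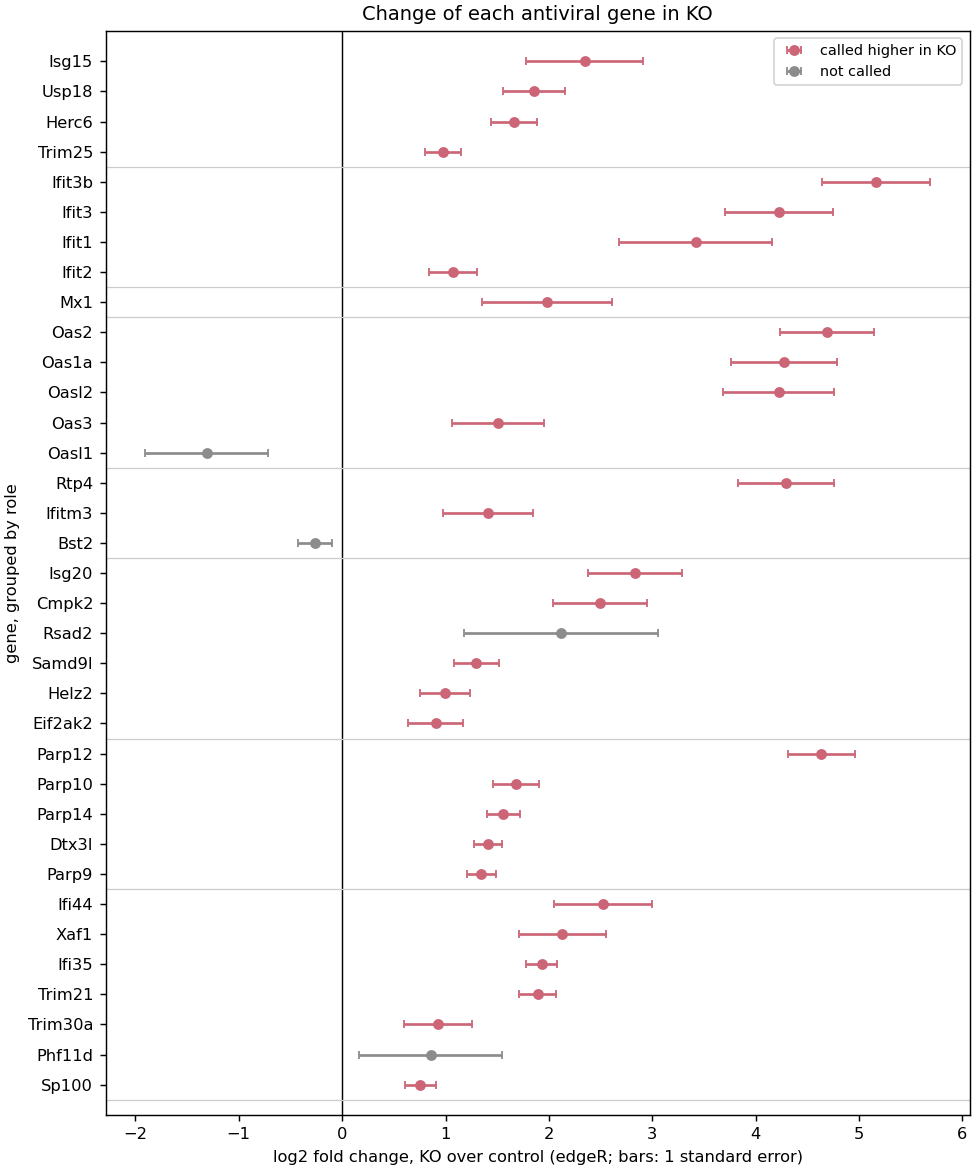
Log2 fold change of KO over control for the 35 genes (edgeR), grouped by role, with bars of 1 standard error; red marks genes called higher and grey those not called. Values run from −1.31 for Oasl1 to 5.16 for Ifit3b, and the 4 grey genes are Rsad2, Oasl1, Bst2 and Phf11d.

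Set per kilobase of exon, the genes differed widely in starting level. In control 14 of the 35 genes lay under 1 CPM per kilobase and 21 at or above it. Among the scarce genes 11 of 14 were called higher, with a median of 3.53 (log2), and among the others 20 of 21, with 1.41. The control level enters both the grouping and the fold change, so these medians are a description. In KO the most abundant were Isg15 (62.3 CPM per kilobase, the eighth in control at 12.1) and Ifi35 (55.9, from 14.6). Dtx3l was the third in both groups (16.8 and 44.6 CPM per kilobase). At the other end Phf11d and Oasl1 held 0.0994 and 0.290 CPM per kilobase in KO.

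The libraries numbered 3 held the most of these transcripts in both groups. Control replicate 3 was the highest control library for 29 of the 35 genes, against 41.4% of all tested genes. The exceptions were Usp18, Bst2, Parp9, Parp12, Phf11d and Ifi35. For 11 of the 35 it was at least 2-fold above both other control libraries, against 4.91% of all tested genes. KO replicate 3 was the highest KO library for 31 of the 35, against 34.2% of all tested genes, and the exceptions were Ifit3, Ifit3b, Isg20 and Phf11d. Relative to the mean of the 3 control libraries, the median gene stood at −0.16, −0.37 and 0.47 (log2) in control replicates 1, 2 and 3 and at 1.58, 1.71 and 2.26 in KO. The libraries numbered 3 also carry the Y-linked counts, and between them the median difference was 1.65 (log2).

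**Figure D3:**
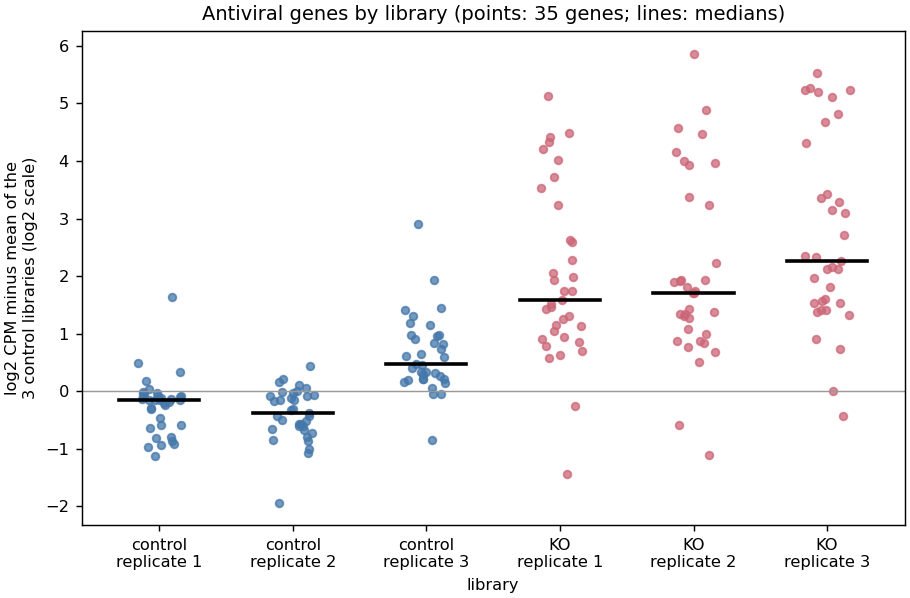
Log2 CPM of each of the 35 genes minus its mean over the 3 control libraries, by library; points are genes and black lines are medians. The medians are −0.16, −0.37 and 0.47 in control and 1.58, 1.71 and 2.26 in KO, and replicate 3 has the highest median of each group.

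Within each replicate number the difference was of like size. The median log2 difference of KO over control, computed with a prior count of 2, was 1.70 within number 1 (32 of 35 genes higher in KO), 1.98 within number 2 (33 of 35) and 1.65 within number 3 (34 of 35). Over all tested genes the medians were −0.0028, 0.072 and −0.017. KO was higher within all 3 numbers for 32 of the 35 genes, against 37.8% of all tested genes. Of the 31 genes called higher, 26 kept the call in each fit that left out 1 library. The other 5 were Mx1, Oas3, Ifitm3, Eif2ak2 and Trim30a. For all 5, KO was above control within every replicate number, whereas a fit without 1 library keeps the other library of that number.

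**Figure D4:**
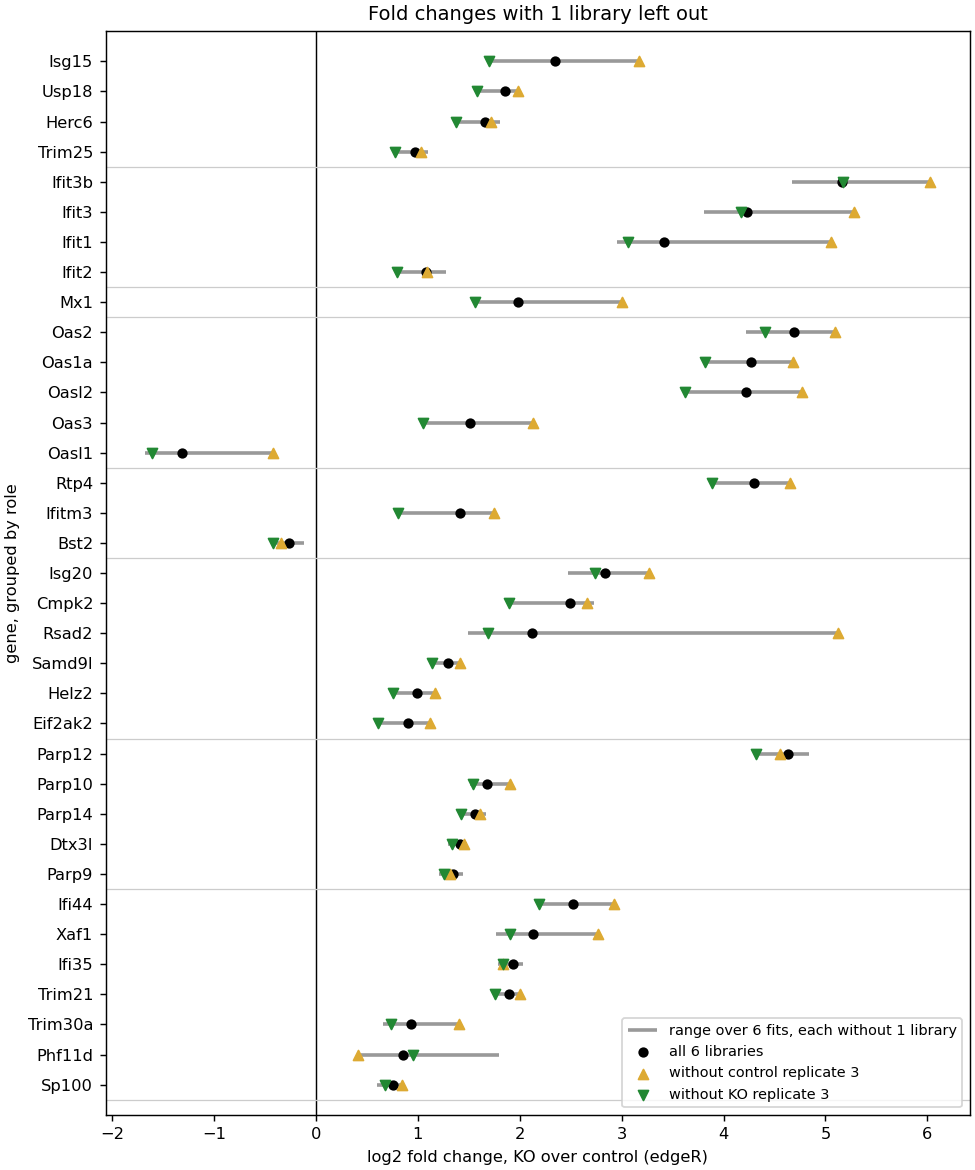
Log2 fold change of KO over control (edgeR) for the 35 genes with all 6 libraries (black) and its range over 6 fits that each left out 1 library (grey bar); triangles mark the fits without replicate 3 of control or KO. Rsad2 has the widest range, 1.49 to 5.12, and no gene crosses 0.

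Promoter sequences were examined for the response element. The genes were chosen by name as ones that type I interferon induces, so a high share of matches can follow from that choice. The shares below are thus a description of the list and not a result of the KO comparison. The RefSeq promoter table (GRCm38.p6) held 28 of the 36 genes, some with several starts, of which any could hold a match. Usp18, Mx1, Mx2, Oas2, Rtp4, Parp9, Parp10 and Parp14 had no entry. The core of the element, written here as GAAA, any 2 bases, GAAA, was searched on both strands in the 250 bases upstream of each start. It was found for 9 of the 28 genes (32.1%), namely Isg15, Ifit1, Ifit3, Ifit3b, Oas1a, Oas3, Bst2, Rsad2 and Trim30a, and for 3.33% of tested genes with an entry. Counted per start and not per gene, 9 of 33 promoters of these genes (27.3%) and 2.98% of all 32851 promoters listed held it. With the first 50 bases downstream added, the shares per gene were 42.9% of the listed genes and 3.84% of tested genes. Of the 9 genes with a match, 7 were called higher and 2 were not called (median log2 fold change 2.34). Of the 19 without, 17 were called higher and 2 were not (1.41). Genes with and without a match in this window thus stood on both sides of the call.

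The upstream windows below are shown 5′ to 3′ on the gene's strand, with matches to this core or its reverse complement in capitals. Ifit3b (chr19:34607707-34607956, plus strand) and Parp12 (chr6:39118350-39118599, minus strand) had the largest called increases with an entry. Bst2 (chr8:71537473-71537722, minus strand), Rsad2 (chr12:26456453-26456702, minus strand) and Oasl1 (chr5:114922990-114923239, plus strand) were not called. Isg15 (chr4:156200819-156201068, minus strand) was added after its values were seen, for its run of overlapping matches.
Ifit3b: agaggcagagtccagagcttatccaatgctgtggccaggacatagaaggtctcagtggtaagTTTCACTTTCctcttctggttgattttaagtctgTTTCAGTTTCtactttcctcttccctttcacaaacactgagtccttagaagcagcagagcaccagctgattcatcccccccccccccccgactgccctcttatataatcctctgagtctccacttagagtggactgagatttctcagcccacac
Isg15: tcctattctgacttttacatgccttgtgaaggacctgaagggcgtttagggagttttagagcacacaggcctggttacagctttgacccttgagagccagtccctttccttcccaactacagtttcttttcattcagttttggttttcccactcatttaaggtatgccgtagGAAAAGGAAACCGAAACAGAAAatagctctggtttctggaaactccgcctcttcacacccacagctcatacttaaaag
Parp12: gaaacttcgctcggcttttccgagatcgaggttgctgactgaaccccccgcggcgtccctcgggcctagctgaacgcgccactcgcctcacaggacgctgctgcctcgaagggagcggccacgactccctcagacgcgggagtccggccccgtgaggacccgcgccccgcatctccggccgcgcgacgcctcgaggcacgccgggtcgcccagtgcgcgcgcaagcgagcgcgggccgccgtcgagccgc
Bst2: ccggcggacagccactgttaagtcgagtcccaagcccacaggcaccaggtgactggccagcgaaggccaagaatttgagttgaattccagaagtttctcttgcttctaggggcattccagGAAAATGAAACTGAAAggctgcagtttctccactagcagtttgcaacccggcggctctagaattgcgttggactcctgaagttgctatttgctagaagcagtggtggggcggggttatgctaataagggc
Rsad2: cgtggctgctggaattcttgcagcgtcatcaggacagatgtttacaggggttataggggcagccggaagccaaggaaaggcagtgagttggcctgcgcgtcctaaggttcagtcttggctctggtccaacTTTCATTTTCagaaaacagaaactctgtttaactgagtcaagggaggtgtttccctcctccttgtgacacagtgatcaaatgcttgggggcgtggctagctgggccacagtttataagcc
Oasl1: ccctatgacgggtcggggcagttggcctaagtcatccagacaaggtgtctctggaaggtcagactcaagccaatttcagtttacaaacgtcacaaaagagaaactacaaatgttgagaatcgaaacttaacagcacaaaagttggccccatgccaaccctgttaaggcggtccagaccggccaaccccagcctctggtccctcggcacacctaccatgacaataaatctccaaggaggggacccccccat

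Ifit3b had matches that began 188 and 154 bases before the start, and its copy Ifit3 had the same letters at 156 and 122 bases. In Isg15, 3 overlapping matches began 78, 72 and 66 bases before the start. Bst2, which was not called, had a pair of overlapping matches at 130 and 124 bases, and Rsad2 had 1 at 120 bases. Parp12, with a log2 fold change of 4.63, had no match in this window, and neither had Oasl1. A match is a description of letters and not a shown binding site.

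The interferon pathway around these genes was examined through a list of 46 ligands, receptors, kinases, transcription factors, regulators and sensors, of which 37 passed the filter. Of these, 19 were called higher and 4 lower, against 23.2% and 22.9% of all tested genes. Of the 10 ligand genes listed, those that failed the filter were nearly silent. Ifnb1, the interferon beta gene, had 0, 4 and 8 counts in control and 2, 0 and 0 in KO. Ifna1, Ifne and Ifnl3 had 0 counts in every library, where 3 counts, the limit that a count of 0 allows, correspond to 0.0619 to 0.182 CPM. Ifna2, Ifna4 and Ifna5 had at most 4 counts in any library and Ifnl2 at most 2. Interferon kappa (Ifnk) held 1.46, 0.392 and 0.665 CPM in control and 2.05, 1.15 and 1.02 CPM in KO. Interferon gamma (Ifng) held 0.0608, 0.413 and 0.380 CPM in control and 0.683, 0.214 and 0.661 CPM in KO. Both passed the filter and were not called, with log2 fold changes of 0.84 and 0.66 (edgeR adjusted p = 0.223 and 0.422). Interferon alpha genes other than Ifna1, Ifna2, Ifna4 and Ifna5 were not in the list.

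All 4 tested receptor genes rose. Ifnar1 held 74.8, 70.7 and 79.3 CPM in control and 162, 194 and 199 CPM in KO (log2 fold change 1.30, SE 0.121, edgeR adjusted p = 0.000183). Its partner Ifnar2 changed less (0.41, adjusted p = 0.0319), a call kept with all libraries and without KO replicate 1 but lost in the other 5 fits that left out 1 library, with values of 0.29 to 0.45, and lost without a filter on low counts. The interferon gamma receptor genes Ifngr1 (1.84, adjusted p = 0.000616) and Ifngr2 (1.18, adjusted p = 0.000524) rose as well. Of the kinases, Jak1 rose (0.65, adjusted p = 0.00228), Jak2 fell (−0.44, adjusted p = 0.0168) and Tyk2 was not called (0.17, adjusted p = 0.274). The Jak2 call was lost without control replicate 1 (−0.42) and in 2 other fits that left out 1 library, those without KO replicate 2 or KO replicate 3.

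Among the factors that carry the signal to DNA 5 of 9 rose, by unequal amounts. Irf1 held 27.4, 36.8 and 39.3 CPM in control and 184, 167 and 239 CPM in KO (log2 fold change 2.51, SE 0.185, edgeR adjusted p = 7.9e-05). Irf7, itself an interferon-stimulated gene that amplifies interferon production, held 3.89, 3.82 and 11.8 CPM in control and 20.8, 24.1 and 35.1 CPM in KO (2.01, SE 0.432, adjusted p = 0.00567), and was 2.72 without control replicate 3. Stat2 (1.29, adjusted p = 0.00223), Irf5 (0.80, adjusted p = 0.00516) and Irf9 (0.48, adjusted p = 0.0322) were called too. The Irf9 call was lost without control replicate 1 (0.36), control replicate 2, KO replicate 2 or KO replicate 3. Stat3, Irf2, Irf3 and Irf8 were not called. With the replicate number as a block Irf2 (0.36, adjusted p = 0.0218) and Irf8 (0.45, adjusted p = 0.0364) were called higher.

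Negative regulators were mixed. Socs3 rose (log2 fold change 1.33, edgeR adjusted p = 0.000395), the phosphatase genes Ptpn2 (−0.92, adjusted p = 0.000528) and Ptpn6 (−0.61, adjusted p = 0.00481) fell, and Socs1 held 105 ± 3.94 and 108 ± 3.56 CPM (0.045, adjusted p = 0.734). Among the 14 sensors and adaptors 8 were called higher and 1 lower. The RNA sensors RIG-I (Ddx58, 1.37, adjusted p = 0.00617) and MDA5 (Ifih1, 1.40, adjusted p = 0.0107) rose, whereas their adaptor Mavs was not called (−0.062, adjusted p = 0.705; 0.027 with library size as the only scaling). The DNA sensor cGAS (Mb21d1) was the gene called lower, with 12.1, 11.0 and 12.4 CPM in control and 5.47, 5.31 and 4.98 CPM in KO (−1.17, SE 0.176, adjusted p = 0.00121), while its adaptor STING (Tmem173) rose (1.14, adjusted p = 0.000451). Tlr3 had 0 counts in every control library and 16, 25 and 37 counts in KO. It passed the filter through its KO counts alone, and it is included in the 8 sensors and adaptors and the 19 pathway genes called higher.

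**Figure D5:**
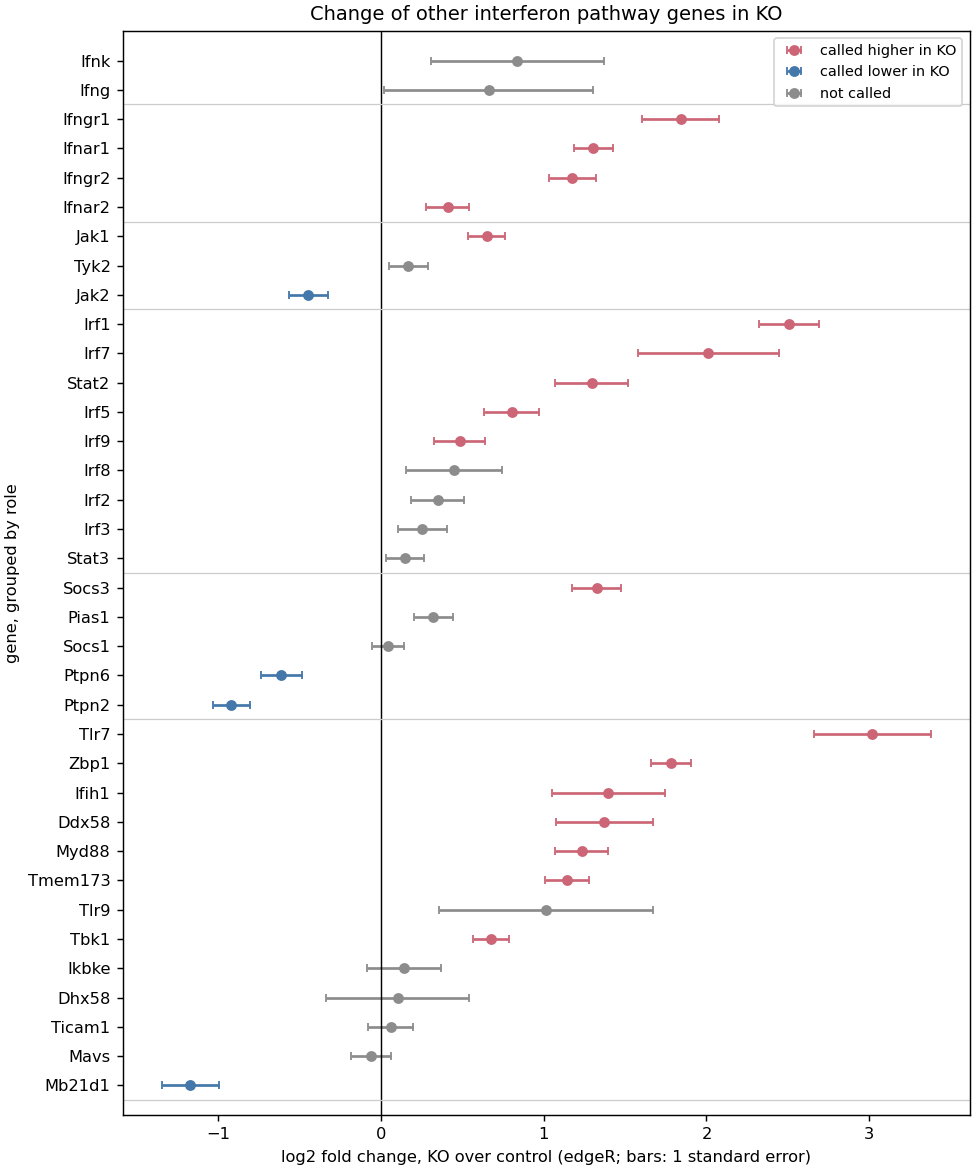
Log2 fold change of KO over control (edgeR) for the interferon pathway genes that passed the filter, grouped as ligands, receptors, kinases, STATs and IRFs, negative regulators, and sensors with adaptors; bars are 1 standard error. Receptors lie between 0.41 and 1.84, Mb21d1 is lowest at −1.17, and Tlr3 is left out because all control libraries had 0 counts.

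Markers of other cell types that express antiviral genes were counted beside these results. The 10 myeloid and dendritic markers summed to 3.71 to 6.53 CPM in control and 25.4 to 35.3 CPM in KO. Of the 5 that passed the filter 3 (Csf1r, Cd68 and Mpeg1) were called higher. Cd68 was the largest part of the sum, with a mean of 3.19 CPM in control and 20.0 CPM in KO. Mpeg1 rose from a mean of 0.1345 to 5.71 CPM. Cd14 (log2 fold change 1.36, edgeR adjusted p = 0.0646) and Fcgr3 (−1.33, adjusted p = 0.0536) were not called. For Fcgr3 every KO library lay below every control library. Of those not tested, Lyz2 had 0, 2 and 4 counts in control and 46, 11 and 8 in KO. Itgax had 1, 2 and 0 counts in control and 20, 15 and 6 in KO. Flt3 had 4, 14 and 22 counts in control and 5, 9 and 9 in KO. Itgam had at most 3 counts in any library and Adgre1 at most 5. The 7 CD8 and NK markers summed to 10.9 to 15.3 CPM in control and 22.7 to 29.99 CPM in KO. Only Prf1, the pore-forming protein of killer cells, was called among the 4 that passed the filter (log2 fold change 5.08, edgeR adjusted p = 7.7e-05). It made most of the rise in the sum, with 0.182, 0.351 and 0.451 CPM in control and 8.96, 11.2 and 16.1 CPM in KO. Cd8a (0.68), Cd8b1 (−0.31) and Klrd1 (0.47) overlapped between the groups and were not called. Ncr1 and Klrb1c had 0 counts in every library. The 6 plasmacytoid dendritic markers summed to 86.4 to 136 CPM and 119 to 188 CPM, with Ccr9 and Tcf4 called higher among the 3 tested and Siglech at no more than 1 count in any library. Irf8, the third tested and not called, made up most of that sum, with 82.5, 119 and 57.0 CPM in control and 156, 119 and 78.4 CPM in KO. Cox6a2, not tested, had 5, 37 and 45 counts in control and 3, 2 and 4 in KO. The 6 B cell markers summed to 8.33 to 12.3 CPM and 6.38 to 7.16 CPM, with 2 of the 3 tested called lower. The part of these genes in the antiviral result was not tested.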

How the data were processed

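Deposited values were whole-number read counts per gene symbol that the authors made for 3 control and 3 KO libraries; STAR, featureCounts, DESeq2 and the build mm10 are listed in the submitters' processing notes, and annotation and strand setting are not given in the sources used here. Columns were matched to samples by description, and 0 columns lacked a sample. KO was compared with control over all genes by edgeR 4.0.16 in R 4.3.3 (quasi-likelihood test, TMM factors, filterByExpr, no covariate), with Benjamini-Hochberg adjustment over 14268 genes and a threshold of 0.05. The filter keeps a gene with enough counts in either group alone, so genes such as Tlr3 and Ifit3b entered through their KO counts. CPM used TMM-scaled library sizes, and the SE is the absolute log2 fold change over the square root of F. Reads carried no stated molecular identifiers, so the limit of 3 counts covers counting error only. The script was tested on simulated counts, with changes set in genes drawn at random from all tested genes. It recovered 67.0% of log2 changes of 1 (97 genes) and 82.3% of log2 changes of 2 (96 genes). Of its calls 5.88% were false, and an uncalled gene can be a missed change.

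Genes and lists were chosen with earlier results of these data known. Named genes were Rtf1, the antiviral genes and a fixed pathway list; Prf1, Cd68, Mpeg1 and other markers were named after their values were seen. One further pathway gene is not reported here. Full statistics went to genes changed at least 4-fold, genes not called, and the extremes of each role. They were also given for genes outside that rule: Usp18, Oas3, Ifitm3, Dtx3l, Ifi35, Trim21, Trim30a and some pathway genes. Promoters printed were those of the 3 largest called increases (Oas2, among them, had no entry), those of the 3 uncalled genes with the highest mean CPM, and Isg15. Lengths, positions and shared 50-base stretches came from GENCODE M21 (GRCm38, the assembly of mm10). Equal replicate numbers were read as pairs. Their deviations from the group means correlated across genes by 0.27, 0.13 and 0.379, and unequal numbers gave −0.39 to 0.204. Control 2 correlated more with KO 1 (0.204) than with KO 2 (0.13), so these values do not settle pair 2. The libraries numbered 3 also share the Y-linked counts, and the main test used no block. Alternatives were DESeq2 (1.42.0) and its size factors, library size only, other filters, the replicate block, replicates 1 and 2 only, and leaving out each library.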

Additional observations from a re-analysis of the deposited data

How the results depend on the processing

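Over 13 alternatives no antiviral gene changed direction, and the calls of 31 genes all held under the 7 alternatives that did not leave out a single library. The count called higher ran from 26 to 32. The count called lower was 0 in the full comparison, 1 with the replicate block (Oasl1), 1 with replicates 1 and 2 only (Bst2), and 0 to 1 when 1 library was left out (1 without control replicate 1). With the replicate block 7628 genes were called in place of 6574, and beyond Rsad2 and Oasl1 the block changed no call of an antiviral gene; of the pathway genes it added Irf2, Irf8 and Pias1 (0.32, adjusted p = 0.0339). Of the uncalled pathway genes 5 changed sign: the log2 fold change of Mavs was 0.027 with library size only; with 1 library left out, Socs1 ran from −0.054 to 0.067, and was −0.0045 without control replicate 3. Likewise Dhx58 ran from −0.20 to 0.80 (−0.18 without control replicate 2 and −0.17 without KO replicate 3), Ticam1 from −0.044 to 0.10 (−0.026 without KO replicate 3), and Ikbke from −0.094 to 0.34. The cause was not tested. With 3 libraries a group, Phf11d and Mx1 rest on few counts.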
